A study of Caenorhabditis elegans with 24 samples.

Results

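The miRNAs described here are the mature miRNAs of Caenorhabditis elegans hairpins numbered mir-1000 and above, the late entries of the worm miRNA catalogue, with mir-1019, mir-1020 and mir-8200 set aside. Their number was the only criterion: letters and copy suffixes were dropped, and no measured value entered the choice. They filled 207 of the 450 rows of the deposited count table, which gave 195 of 437 mature names from 119 of 253 hairpins once names listed for several hairpins were counted once. They are called late-numbered miRNAs below, and the 236 names numbered under 1000 or lettered are called the other miRNAs.

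Small RNA was sequenced from whole animals of 6 genotypes: N2 wild type (WT), alg-1(ma447) carrying F180del, alg-1(ma443) carrying G199S, alg-1(zen25) carrying V254I, alg-1(zen18) carrying H751L, and the deletion allele alg-1(tm492), called null. Each genotype gave 2 libraries of total small RNA from the lysate and 2 of the RNA recovered by ALG-1 immunoprecipitation (IP), so that 24 libraries fell into 12 groups. Larvae that had hatched in the absence of food were grown for 45 h at 20 °C before collection. The alleles are carried in every cell of the animal, and the labels do not state whether the 2 libraries of a group came from separate cultures. The p-values therefore measure a spread between libraries that may be technical only. Every comparison with WT uses the same 2 WT libraries of its fraction.

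A miRNA is cut from a hairpin by Drosha and Dicer, and one of the 2 arms of the hairpin, named 5p or 3p, is kept by an Argonaute protein and guides it to target mRNAs. ALG-1 is one of the Argonautes that hold miRNAs in the worm, and ALG-2 is its close relative, so a null animal still has an Argonaute for miRNAs. Some hairpins, called mirtrons, are whole introns: splicing and debranching release them in place of the Drosha cut. Late catalogue numbers were mostly given to hairpins first seen by deep sequencing. Functions are known for few of them, and none is given here for single late-numbered miRNAs. No mature sequence was in the sources used here, so none is shown.

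Library totals ran from 3940626 to 13835895 miRNA reads, and all levels are reads per 1000000 miRNA reads (RPM), which are shares of a library and not amounts. In bulk animals fewer cells of a type and less RNA per cell cannot be told apart. Detection was set at 10 RPM in both libraries of a group, which is 39 reads in the smallest library, with an exact 95% counting interval of 7.04 to 13.5 RPM, and 138 reads in the largest, with an interval of 8.38 to 11.8 RPM. A count of 0 allows up to 3 reads, or 0.217 to 0.761 RPM depending on the library, and these limits cover counting error only. Several libraries stood apart. In null IP, 19 late-numbered miRNAs had a read in library 1 and 54 in library 2, against 75 to 109 in the other IP libraries. The embryo and germline miRNAs miR-35 to miR-42 (3p arms, summed) held 121373 and 95430 RPM in G199S total and 56723 and 62651 RPM in G199S IP, against 10565 to 19719 RPM in the other total libraries and 2354 to 8629 RPM in the other IP libraries. The neuronal miR-124-3p was at 688 RPM in library 2 of H751L total and at 715 RPM in library 2 of null total, against 39.9 to 233 RPM in the other total libraries. The other neuronal marker, lsy-6-3p, was at 78.5 and 40.1 RPM in these 2 libraries, within the 29.6 to 81.2 RPM of the other total libraries. The same 2 libraries were lowest among the total libraries in the glial miR-228-5p, at 17064 and 21738 RPM against at least 30393, in let-7-5p, at 3365 and 4166 RPM against at least 5617, and in the intestinal miR-60-3p, at 2577 and 2021 RPM against at least 3813. Counts of calls that rest on these libraries are given below with and without them.

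Most late-numbered miRNAs were barely read. Of the 195 names, 23 had no read in any library and 56 had fewer than 10 reads over all 24 libraries, the 23 included. Together they held 251783 of 229880606 reads, or 0.1095%. In WT total their summed share was 0.0885% ± 0.0020 (SD, n = 2), and in WT IP it was 0.115% ± 0.0003 (SD, n = 2). The share was 0.138% ± 0.049 in F180del total and 0.138% ± 0.033 in G199S total, 0.107% ± 0.021 in V254I total, 0.0824% ± 0.0146 in H751L total and 0.0844% ± 0.0203 in null total (SD, n = 2 each). In IP the mutant groups lay between 0.0918% ± 0.0069 in H751L and 0.134% ± 0.010 in V254I (SD, n = 2 each). The reads were concentrated: 5 miRNAs, miR-1820-5p, miR-1022-5p, miR-4816-3p, miR-1819-3p and miR-1829c-5p, held 58.1% of them, with 24.4% on miR-1820-5p and 19.7% on miR-1022-5p.

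Of the 195 late-numbered miRNAs, 28 reached the detection level in at least 1 group and 167 in none. In WT, 15 were detected in total and 10 in IP, whereas 132 of the 236 other miRNAs (55.9%) were detected in WT total and 114 (48.3%) in WT IP. In the mutants 18 were detected in F180del total, 18 in G199S total, 15 in V254I total, 9 in H751L total and 11 in null total. In IP the numbers were 11 in F180del, 12 in G199S, 10 in V254I, 7 in H751L and 9 in null. Of the 236 other miRNAs, in the same order of genotypes, 154, 157, 134, 138 and 143 were detected in total. In IP 155, 145, 119, 115 and 112 of them were detected. Detected in all 12 groups were 3 miRNAs, miR-1022-5p, miR-1819-3p and miR-1829a-3p. A further 12 were detected in total groups and in no IP group: miR-4816-5p, miR-4926, miR-8191-5p, miR-2220-3p, miR-8198-3p, miR-1830-3p, miR-4920, miR-1018, miR-2953-3p, miR-8202-5p, miR-1820-3p and miR-8199-5p. In IP groups alone 4 were detected: miR-1829a-5p, miR-1829b-3p, miR-1829c-3p and miR-4813-5p. The detection level cut a continuous range of values. The lowest group minimum among detected miRNAs was 10.7 RPM for miR-1830-3p, then 11.7 for miR-2953-3p and 11.8 for miR-1829b-3p. The best group minimum outside it was 9.46 RPM for miR-1822-3p, 9.39 for miR-5592-5p and 8.67 for miR-4806-3p.

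**Figure D1:**
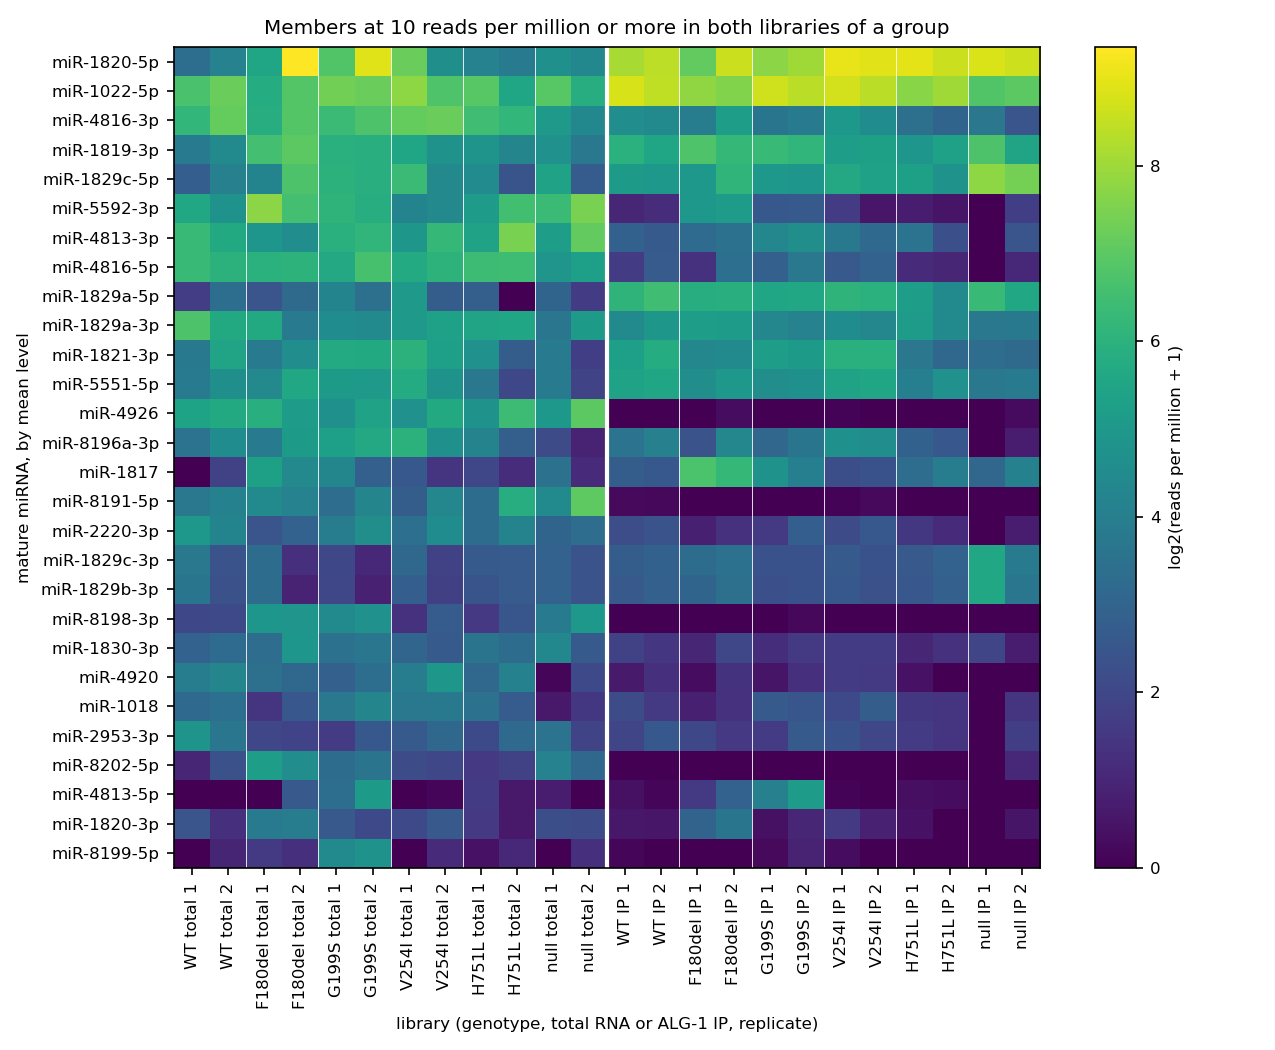
Levels of the 28 late-numbered miRNAs that reached 10 reads per 1000000 in both libraries of a group, one row per miRNA in order of mean level and one column per library, total RNA left of the thick line and ALG-1 IP right of it; colour is log2(reads per 1000000 + 1). Rows such as miR-4926, miR-8191-5p, miR-8198-3p and miR-8202-5p are at or near 0 across the IP libraries, while miR-1820-5p is brighter in the WT IP libraries than in the WT total libraries.

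Where the hairpins lie was read from the Ensembl annotation of WBcel235, since the build used by the submitters is not given in the sources used here. The annotation held 117 of the 119 hairpins. On the strand of a protein-coding gene and inside its intron were 38 (32.5%), against 26 of 130 (20.0%) of the other hairpins found. On the opposite strand of such an intron were 13, 4 overlapped an exon of a protein-coding gene and 62 lay outside protein-coding genes. An intron from its first to its last base was the hairpin in 18 cases (15.4%), the layout of a mirtron, against 1 of 130 (0.769%) among the other hairpins. Of these 18, 11 were introns of 1 gene, the non-coding RNA gene Y59E1B.1 on chromosome X: mir-1018, mir-2220, mir-4807, mir-4808, mir-4809, mir-4810a, mir-4810b, mir-4921, mir-4923a, mir-4923b and mir-4925. Another 5 were introns of protein-coding genes: mir-4816 of T09B4.2, mir-4920 of sph-1, mir-4924 of T11G6.5, mir-4926 of ari-1.3 and mir-4927 of M01F1.4. The remaining 2, mir-4922-1 and mir-4922-2, were introns of pseudogenes. Among the hairpins with most reads, mir-1820 lay on chromosome IV from 7767461 to 7767567 on the plus strand and mir-1022 on chromosome X from 6435425 to 6435512 on the minus strand, both outside protein-coding genes. mir-4813 lay on chromosome III from 4571640 to 4571716 and overlapped an exon of idhg-1, which encodes a subunit of isocitrate dehydrogenase. mir-1829a, mir-1829b and mir-1829c lay on chromosome X inside introns of 3 different genes, gas-1, F20D1.3 and piki-1. The hairpins mir-5592-1 and mir-5592-2 lay on opposite strands of the same stretch of chromosome X, from 13759245 to 13759308 and from 13759247 to 13759310, in an intron of aakb-1.

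Some of these names share reads. The rows of miR-5592-3p for its 2 hairpins were equal in 22 of 24 libraries, and the rows of miR-4922 for its 2 hairpins in all 24, so 1 row per name was kept. miR-1829b-3p and miR-1829c-3p had equal counts in 6 libraries, and in no library did the second exceed the first by more than 1.625 times or fall below it, so their separate levels are uncertain. How the authors treated reads that match several miRNAs is not given in the sources used here.

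Differences were tested with edgeR's quasi-likelihood test on the counts, with Benjamini-Hochberg adjustment over all mature miRNAs tested and a threshold of 0.05, and a miRNA is said to rise, fall or be called where it passed. Low counts were filtered before testing: 88 late-numbered miRNAs were tested in total RNA, 68 in IP and 99 across both fractions. A log2 change is the fitted one, given with its standard error (SE). For a group at 0 reads a bound against 3 reads over the group is given in its place, and for a group with 1 to 3 reads the ratio of pooled RPM with its exact 95% counting interval. In every change called between 2 groups, their libraries did not overlap. Overlap was not counted over all miRNAs tested, so this adds no support beyond the call itself. With 2 libraries against 2 an exact two-sided permutation test of a single value could not go below 0.333.

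The first question was which late-numbered miRNAs differed between ALG-1 IP and total RNA in WT. Of 99 tested, 15 were called, 6 higher and 9 lower in IP than in total, which is 15.2% against 21.9% over all miRNAs tested, where 9.21% were higher and 12.7% lower. miR-1820-5p was the furthest above its total level among those with reads in both fractions, with 9.33 and 16.7 RPM in WT total and 280 and 344 RPM in WT IP. It rose by 5.12 ± 1.07 (SE) on the log2 scale (edgeR adjusted p = 0.00265) and kept the call under all 11 alternatives, the removal of each single library among them. miR-1022-5p, at 99.8 and 146 RPM in total, stood at 443 and 352 RPM in IP, the highest mean level of a late-numbered miRNA in both WT fractions. Its change was 2.21 ± 0.62 (SE; edgeR adjusted p = 0.0142), and that of miR-1819-3p, at 13.6 and 20.9 RPM in total and 61.9 and 44.7 RPM in IP, was 2.13 ± 0.59 (SE; edgeR adjusted p = 0.0137). For both, the call was lost without library 1 of WT total and without library 1 of WT IP. That of miR-1819-3p was also lost with library totals in place of TMM factors. miR-1829a-5p was at 2.23 and 9.32 RPM in total and 66.9 and 89.1 RPM in IP, a rise of 4.22 ± 1.24 (SE; edgeR adjusted p = 0.0178). The other 2 called higher were of low level: miR-8210-5p had 85 reads over the 2 IP libraries and 6 over the 2 total libraries, and miR-8208-5p had 73 in IP and 0 in total, at least 16.2-fold higher in IP. In null IP, from animals without ALG-1, miR-1829a-5p was at 80.9 and 47.1 RPM and miR-1819-3p at 105 and 42.6 RPM. The ratio of mean IP to mean total level was 19.0 in null and 23.99 in WT for miR-1820-5p, and 13.8 and 13.5 for miR-1829a-5p. It was 3.86 and 3.09 for miR-1819-3p, but 1.36 and 3.23 for miR-1022-5p. miR-8210-5p and miR-8208-5p had no read in null IP. edgeR called no change of the ratio between null and WT, and binding to ALG-1 itself was not tested.

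The 9 that fell were led by miR-4926, the arm of an intron-length hairpin of ari-1.3. It was at 42.0 and 49.9 RPM in WT total and at 0 reads in WT IP, against 769 reads in total, at least 384-fold lower in IP (edgeR adjusted p = 0.000173; kept under all 11 alternatives). Over all genotypes it had 4 reads in the 12 IP libraries and 5239 in the 12 total libraries, where it ranged from 25.1 to 127 RPM. miR-8198-3p, also at 0 reads in WT IP, was at 3.04 and 3.19 RPM in WT total, at least 25.5-fold lower in IP (edgeR adjusted p = 0.00415; kept under all 11 alternatives). The same pattern of pooled reads held for miR-8198-3p over all genotypes, with 1 read in IP and 1425 in total, for miR-8202-5p, with 5 and 1026, for miR-8191-5p, with 7 and 2776, and for miR-8199-5p, with 12 and 510. All 5 were thus read almost entirely in total RNA. miR-8191-5p fell by 5.84 ± 1.26 (SE; edgeR adjusted p = 0.00419) in WT, from 12.4 and 16.5 RPM in total to 0.169 and 0.161 RPM in IP. miR-8202-5p and miR-4936 were at 0 reads in WT IP, at least 24.96-fold and at least 13.98-fold lower.

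miR-5592-3p was at 46.7 and 26.9 RPM in WT total and 1.01 and 1.29 RPM in WT IP, and fell by 4.35 ± 1.07 (SE; edgeR adjusted p = 0.00668). Both arms of mir-4816, the hairpin that is an intron of T09B4.2, fell: the 5p arm was at 77.3 and 63.2 RPM in total and 2.19 and 5.40 RPM in IP, and the 3p arm at 72.6 and 139 RPM in total and 23.0 and 20.6 RPM in IP. Their log2 changes were -3.55 ± 0.99 and -1.78 ± 0.63 (SE; edgeR adjusted p = 0.0137 and 0.0464). miR-4920, the intron of sph-1, fell by 3.42 ± 1.17 (SE; edgeR adjusted p = 0.0419). Library factors bear on this comparison: with library totals in place of TMM factors the median log2 change of all miRNAs moved by -0.53 and the split was 5 higher and 15 lower, and with RLE size factors it moved by -0.44 and the split was 6 and 14. Without library 1 of WT IP 4 were called, and without library 2 of WT IP 6 were called. With only the 2 WT groups in the fit 26 were called, 12 higher and 14 lower.

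**Figure D2:**
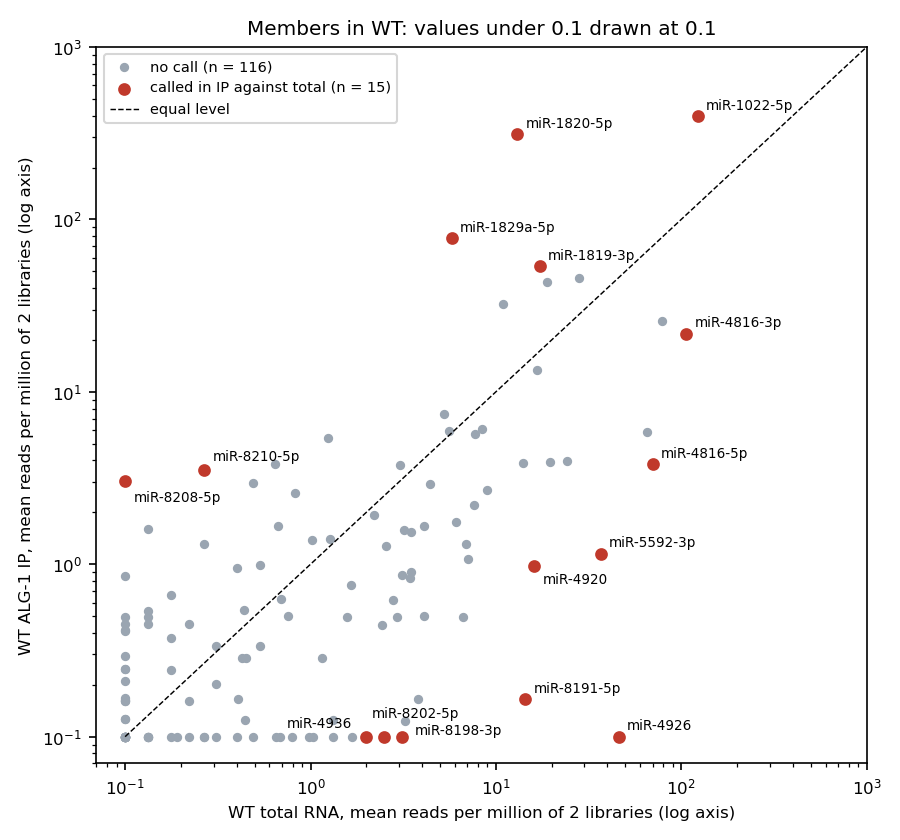
Mean level of each late-numbered miRNA with a read in WT, total RNA on the x axis and ALG-1 IP on the y axis (reads per 1000000, n = 2 libraries each, both axes logarithmic, values under 0.1 drawn at 0.1); red points are the 15 called by edgeR at adjusted p under 0.05 and the dashed line marks equal levels. miR-1820-5p and miR-1829a-5p lie far above the line and miR-4926 far below it, at the lower edge.

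The hairpins that are whole introns were set beside one another by host gene, a grouping chosen after values had been seen, for which counts and levels are given without a test. The 5 in protein-coding genes summed to 207 and 271 RPM in WT total and 25.7 and 27.4 RPM in WT IP, and 4 of their 5 tested arms fell in WT IP against total, a comparison in which 12.7% of all miRNAs tested fell. The 11 in Y59E1B.1 summed to 65.5 and 42.4 RPM in WT total and 20.4 and 17.3 RPM in WT IP, and of 8 tested arms none was called by edgeR between the fractions, beside 21.9% of all miRNAs tested. In both sets the IP libraries of WT lay below the total libraries. Across genotypes the Y59E1B.1 set summed to 13.4 and 16.2 RPM in F180del total and 18.3 and 25.4 RPM in null total, both below WT. It summed to 48.3 and 61.4 RPM in G199S total, 38.2 and 52.1 RPM in V254I total and 30.3 and 41.9 RPM in H751L total. Of the 8 tested arms, 1 was called in F180del total, miR-2220-3p, and 1 in null total, miR-1018, both lower, while 4.29% of all miRNAs tested were lower in each of the 2 comparisons. The median log2 change of the 8 was -2.18 in F180del total and -1.70 in null total, beside 0.13 and 0.23 over all miRNAs tested. In IP the set summed to 6.60 and 9.07 RPM in F180del, 10.6 and 5.96 RPM in H751L and 8.70 and 5.36 RPM in null, all below the 2 WT IP libraries, and to 26.4 and 29.4 RPM in G199S IP, above them. The 8.70 RPM of null IP library 1 were all of miR-4808-3p, with 86 reads, which was at 8.35 and 6.45 RPM in WT IP. Of 7 tested arms 1 fell in F180del IP, miR-4808-3p, beside 8.55% of all miRNAs, and 2 fell in null IP, miR-4807 and miR-2220-3p, beside 24.2%.

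**Figure D3:**
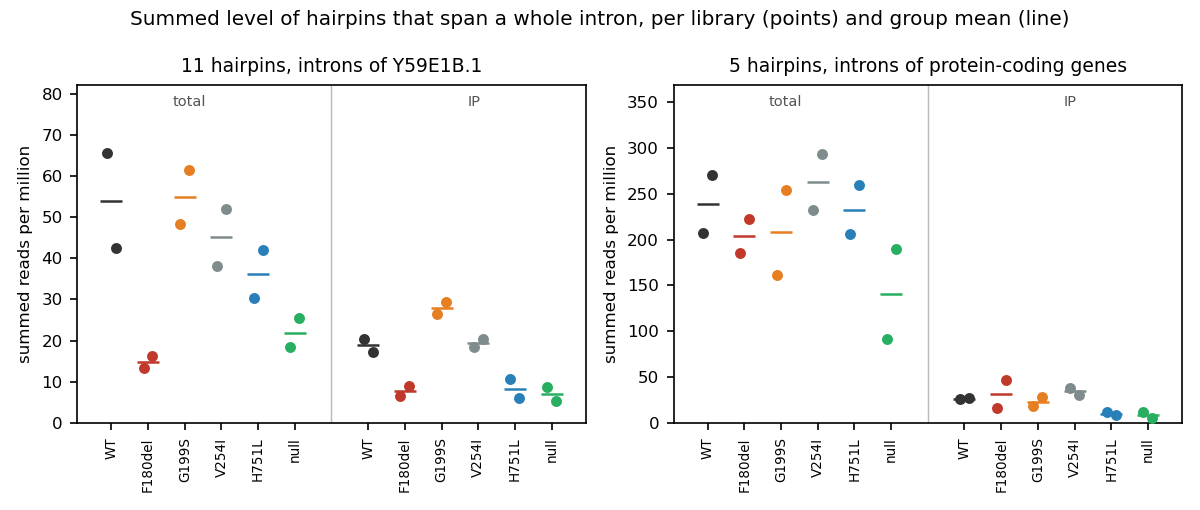
Summed reads per 1000000 of the 11 hairpins that are introns of Y59E1B.1 (left) and the 5 that are introns of protein-coding genes (right) by genotype, total RNA left and ALG-1 IP right of the grey line; points are libraries and lines group means (n = 2). In the left panel both F180del total libraries, at 13.4 and 16.2, lie below every other total library, and in the right panel every IP library lies below every total library.

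The second question was how each allele compared with WT in total RNA. In F180del, 7 of 88 tested late-numbered miRNAs were called, 4 higher and 3 lower, which is 7.95% beside 15.5% over all miRNAs tested, where 11.2% were higher and 4.29% lower. The median log2 change of the 88 was -0.12 and that of all miRNAs tested 0.13. The 4 that rose were miR-1820-5p, miR-8202-5p, miR-8198-3p and miR-1819-3p. The F180del libraries held 44.4 and 654 RPM of miR-1820-5p, against 9.33 and 16.7 RPM in WT. Its log2 change was 4.04 ± 1.14 (SE; edgeR adjusted p = 0.0300), but the F180del libraries were far apart, and without library 2 the change was 1.73 and not called. miR-8202-5p was at 35.5 and 23.2 RPM against 1.01 and 3.99 RPM, a rise of 2.99 ± 0.87 (SE; edgeR adjusted p = 0.0343). miR-8198-3p was at 29.5 and 28.5 RPM against 3.04 and 3.19 RPM, a rise of 2.71 ± 0.82 (SE; edgeR adjusted p = 0.0407). miR-1819-3p was at 92.5 and 127 RPM against 13.6 and 20.9 RPM, a rise of 2.11 ± 0.66 (SE; edgeR adjusted p = 0.0417). Unlike miR-1820-5p, these 3 had F180del libraries close to each other.

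The 3 that fell in F180del total were miR-2220-3p, of a Y59E1B.1 intron, miR-2953-3p and miR-4805-3p. miR-2220-3p was at 4.51 and 6.75 RPM against 30.6 and 17.7 RPM in WT, a log2 change of -2.61 ± 0.74 (SE; edgeR adjusted p = 0.0300). miR-2953-3p was at 3.004 and 2.68 RPM against 27.6 and 11.7 RPM, a change of -3.24 ± 0.94 (SE; edgeR adjusted p = 0.0343). miR-4805-3p had 5 reads over the F180del libraries and 57 over the WT libraries, a change of -3.86 ± 1.19 (SE; edgeR adjusted p = 0.0416). With library totals in place of TMM factors, which shifted the median of all miRNAs by 0.51, none of the 3 was called lower and 5 miRNAs were called higher. Of the 7, none was called without library 1 of WT, 1 without library 2 of WT and 2 without library 2 of F180del. In F180del total lsy-6-3p was at 33.7 and 29.6 RPM against 81.2 and 70.7 RPM in WT, miR-124-3p at 102 and 39.9 RPM against 198.9 and 200.6 RPM, and let-7-5p at 11343 and 17297 RPM against 5617 and 7797 RPM. Their part in these results was not tested.

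In G199S total 3 of 88 were called, all higher, which is 3.41% beside 11.9% over all miRNAs tested, where 10.9% were higher and 0.99% lower, with a median log2 change of 0.29 beside 0.34. miR-4813-5p had no read in WT total and stood at 9.31 and 33.2 RPM in G199S, with 402 reads, at least 121-fold higher (edgeR adjusted p = 0.0194). The other arm of the hairpin, miR-4813-3p, was at 60.04 and 70.02 RPM in G199S and 80.6 and 50.2 RPM in WT, with overlapping libraries and no call. miR-1820-5p was at 112 and 480 RPM, a rise of 4.33 ± 1.15 (SE; edgeR adjusted p = 0.0241), and miR-8198-3p at 21.0 and 25.7 RPM, a rise of 2.70 ± 0.82 (SE; edgeR adjusted p = 0.0421). Without either WT library, or without library 2 of G199S, none of the 3 was called, and miR-8198-3p also lost its call without library 1 of G199S, with RLE size factors and with all hairpin rows kept. miR-8199-5p was at 21.4 and 26.4 RPM in G199S total and at no more than 2.00 RPM in every other total library, and missed the threshold against WT (edgeR adjusted p = 0.0550). G199S libraries also held the high levels of miR-35 to miR-42 given above, and the part of that difference in these results was not tested.

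In V254I total neither edgeR nor DESeq2 called a late-numbered miRNA, and edgeR called 0% of all miRNAs; 2 of 88 had an unadjusted p under 0.05. miR-1820-5p was at 147 and 24.3 RPM there. In H751L total none was called by edgeR, beside 1.98% of all miRNAs, 1.65% higher and 0.33% lower, while 4 of 88 had an unadjusted p under 0.05 and DESeq2 called 1. In these 2 alleles miR-8198-3p was at 1.501 and 5.52 RPM and at 1.93 and 4.74 RPM, ranges that hold both WT values.

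In null total 6 of 88 were called, 1 higher and 5 lower, which is 6.82% beside 11.9% over all miRNAs tested, where 7.59% were higher and 4.29% lower, with a median log2 change of -0.02 beside 0.23. miR-4816-3p was at 32.1 and 19.4 RPM in null against 72.6 and 139 RPM in WT, a fall of 2.19 on the log2 scale ± 0.65 (SE; edgeR adjusted p = 0.0422). Its 5p partner was at 28.2 and 38.2 RPM against 77.3 and 63.2 RPM, without overlap but without a call. miR-4920 was at 0.135 and 3.24 RPM against 14.2 and 18.0 RPM, and miR-1018, of a Y59E1B.1 intron, at 0.539 and 1.85 RPM against 8.12 and 9.76 RPM, with log2 changes of -3.42 ± 1.03 and -3.05 ± 0.89 (SE; edgeR adjusted p = 0.0422 for both). miR-8196a-3p was at 3.50 and 0.924 RPM against 10.8 and 22.5 RPM, a change of -3.05 ± 0.91 (SE; edgeR adjusted p = 0.0422). miR-1822-3p was at 1.48 and 1.23 RPM against 21.5 and 6.57 RPM, a change of -3.42 ± 0.85 (SE; edgeR adjusted p = 0.0279). All 5 were thus low in both null libraries. miR-8198-3p rose again, at 14.0 and 30.7 RPM, by 2.69 ± 0.82 (SE; edgeR adjusted p = 0.0453), a call that RLE size factors and the use of all hairpin rows ended.

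Calls in null total also rested on single libraries: of the 6, none was left without library 1 of WT, 1 without library 2 of WT and 2 without library 1 of null. Without library 2 of null, miR-1018 and miR-4920 were left and miR-1822-3p, miR-4816-3p, miR-8196a-3p and miR-8198-3p lost their calls. With only the 2 groups compared in the fit none was called. Library 2 of null total and library 2 of H751L total, the pair with high miR-124-3p, were the 2 highest total libraries for 7 of the 131 late-numbered miRNAs with at least 10 reads in total RNA, 3 of them detected in a group. miR-8191-5p was at 129 RPM and 55.5 RPM there, against at most 21.4 RPM elsewhere, miR-4813-3p at 138 and 175 RPM, against at most 80.6 RPM, and miR-4926 at 127 and 84.4 RPM, against at most 57.4 RPM. None of the 3 was called in H751L or null total, and the part in these levels of miR-124-3p and of the other markers that stood apart in the 2 libraries was not tested. The count of 7 was not made over all miRNAs, so whether it is particular to late-numbered miRNAs was not tested.

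The third question was the same in ALG-1 IP. In F180del IP 8 of 68 tested were called, 5 higher and 3 lower, which is 11.8% beside 32.3% over all miRNAs tested, where 23.8% were higher and 8.55% lower, with a median log2 change of -0.60 beside 0.29. miR-1817 was at 103 and 74.6 RPM in F180del IP, against 5.74 and 5.00 RPM in WT IP and at most 26.8 RPM in the 8 remaining IP libraries. It rose by 3.38 ± 0.68 (SE; edgeR adjusted p = 0.00338) and kept the call under all 11 alternatives. In total RNA it was at 39.0 and 20.0 RPM in F180del against 0 and 2.48 RPM in WT, which missed the threshold (edgeR adjusted p = 0.0543). miR-5592-3p was at 30.5 and 35.2 RPM against 1.01 and 1.29 RPM in WT IP, and its 5p partner at 9.39 and 11.1 RPM against 0.675 and 0.161 RPM. Their log2 changes were 4.14 ± 1.27 and 3.96 ± 1.07 (SE; edgeR adjusted p = 0.0269 and 0.0189). miR-5592-5p passed the filter on low counts only through F180del IP, the group where it is high. Its call is therefore not independent of the filter. miR-4813-5p was at 2.03 and 6.66 RPM against 0.338 and 0.0806 RPM, a rise of 3.70 ± 1.02 (SE; edgeR adjusted p = 0.0195). miR-1820-3p was at 6.85 and 11.4 RPM against 0.506 and 0.484 RPM, a rise of 3.51 ± 1.21 (SE; edgeR adjusted p = 0.0459), while miR-1820-5p, the arm with nearly all reads of that hairpin, was at 136 and 393 RPM against 280 and 344 RPM, overlapping and not called. The highest of all total libraries was an F180del library for miR-5592-3p, at 210 RPM, and for miR-1820-3p, at 14.5 RPM. None of the 5 rises in F180del IP was called as a change of the IP to total ratio.

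Lower in F180del IP were miR-1022-5p, miR-1821-3p and miR-4808-3p. miR-1022-5p was at 223 and 192 RPM against 443 and 352 RPM in WT IP, a log2 change of -1.60 ± 0.37 (SE; edgeR adjusted p = 0.00707). miR-1821-3p was at 19.3 and 20.7 RPM against 37.5 and 54.3 RPM, a change of -1.89 ± 0.49 (SE; edgeR adjusted p = 0.0138). miR-4808-3p, of a Y59E1B.1 intron, was at 1.27 and 1.03 RPM against 8.35 and 6.45 RPM, a change of -3.34 ± 0.99 (SE; edgeR adjusted p = 0.0243). With library totals, which shifted the median of all miRNAs by 0.67, the 5 higher calls held in number and none was lower. Without library 1 or library 2 of WT IP 2 were called, without library 1 of F180del IP 3 and without library 2 of F180del IP 2. With only the 2 groups in the fit 20 were called, 5 higher and 15 lower.

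In G199S IP 2 of 68 were called, both higher, which is 2.94% beside 25.3% over all miRNAs tested, where 20.4% were higher and 4.83% lower, with a median log2 change of -0.39 beside 0.24. miR-4813-5p was at 16.0 and 35.4 RPM against 0.338 and 0.0806 RPM in WT IP, a rise of 6.61 ± 1.10 (SE; edgeR adjusted p = 0.00156) that was called under all 11 alternatives. miR-1823-3p was at 5.86 and 5.02 RPM against 0.591 and 0.0806 RPM, a rise of 3.72 ± 1.15 (SE; edgeR adjusted p = 0.0390), lost without any 1 of the 4 libraries. In total RNA its hairpin, read almost only as 3p, had 75 and 64 reads in G199S and 0 and 7 in WT. Neither rise was called as a change of the IP to total ratio. With only the 2 groups in the fit 11 were called, 8 higher and 3 lower. In G199S IP let-7-5p was at 7757 and 7325 RPM against 14701 and 12978 RPM in WT IP. miR-1-3p was at 46327 and 72679 RPM against 76854 and 88886 RPM. The part of these markers and of miR-35 to miR-42 in the calls was not tested.

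**Figure D4:**
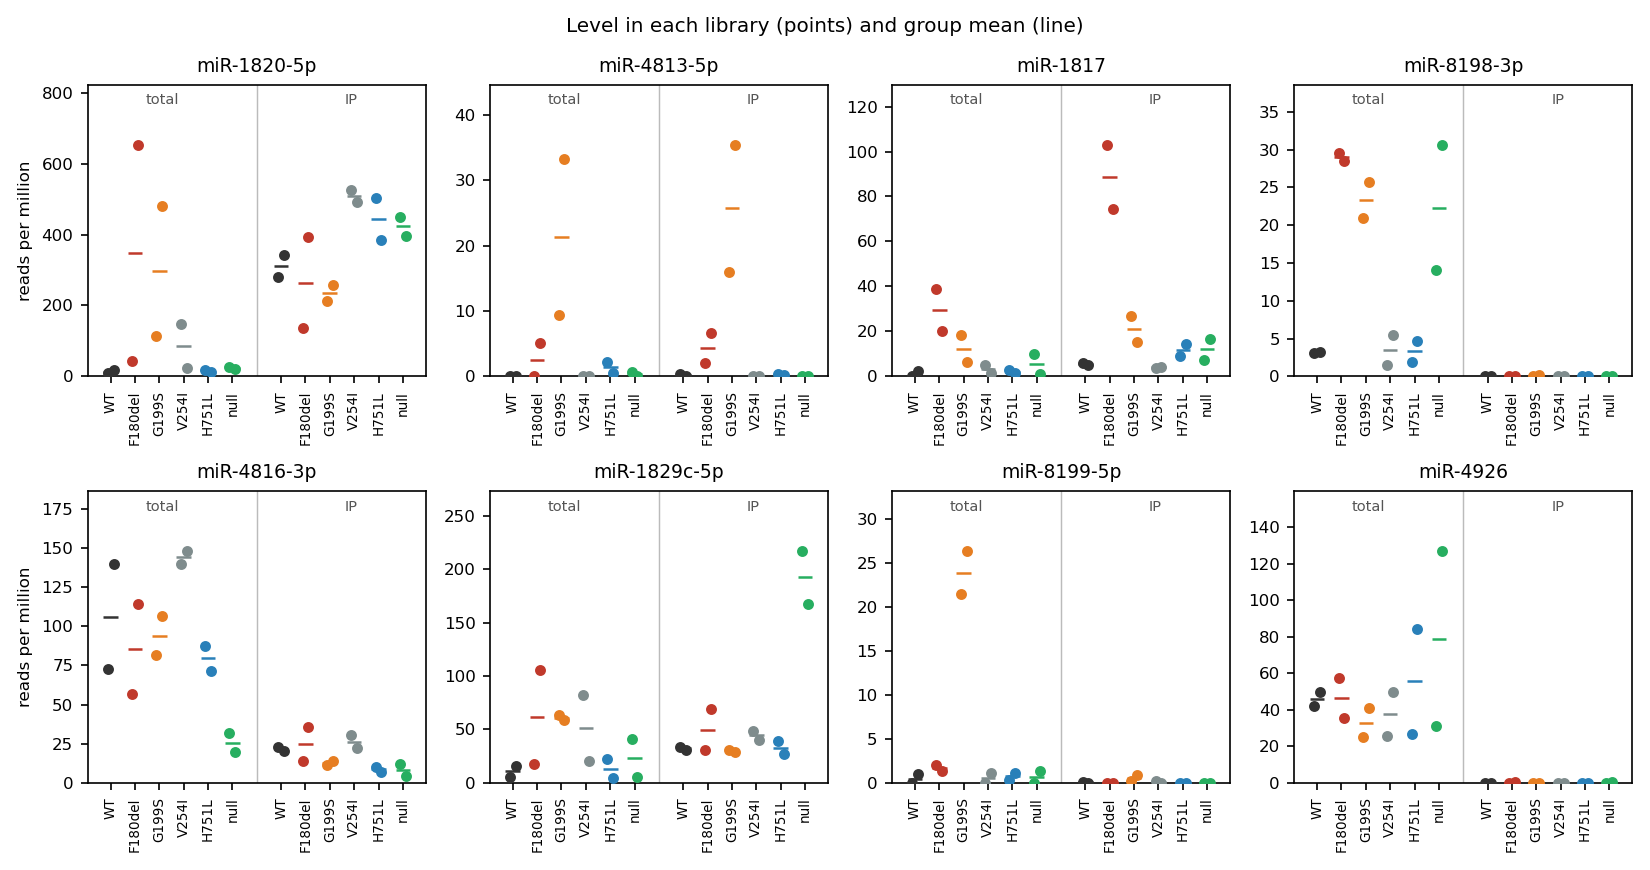
Level of 8 late-numbered miRNAs in reads per 1000000 by genotype, total RNA left and ALG-1 IP right of the grey line in each panel; points are libraries and lines group means (n = 2), and each panel has its own linear axis from 0. miR-4813-5p is high in both G199S fractions, miR-1817 in F180del IP and miR-1829c-5p in null IP, while miR-8198-3p, miR-8199-5p and miR-4926 are at or near 0 in every IP library.

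In V254I IP no late-numbered miRNA was called by edgeR or by DESeq2, none of 68 had an unadjusted p under 0.05, and 0% of all miRNAs were called. In H751L IP 1 of 68 was called, which is 1.47% beside 2.23% over all miRNAs tested, where 0.743% were higher and 1.49% lower: miR-8210-5p had 3 reads in H751L IP and 85 in WT IP, 29.9-fold lower with a counting interval of 9.88 to 148. Without any 1 of the 4 libraries it was not called. DESeq2 called 5 in H751L IP, and a fit of the 2 groups alone called 7, all lower.

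In null IP, the RNA recovered from animals without ALG-1, 27 of 68 were called, 4 higher and 23 lower. That is 39.7%, near the 41.3% over all miRNAs tested, where 17.1% were higher and 24.2% lower, with a median log2 change of -1.55 beside -0.77. miR-1829c-5p was at 217 and 168 RPM in null IP, against 33.5 and 31.0 RPM in WT IP and at most 69.0 RPM in the 8 remaining IP libraries. It rose by 2.81 ± 0.50 (SE; edgeR adjusted p = 0.00219) under all 11 alternatives. In total RNA it was at 40.7 and 5.55 RPM in null and 5.88 and 16.1 RPM in WT, overlapping and not called. miR-1829c-3p was at 46.1 and 13.7 RPM against 5.74 and 6.45 RPM in WT IP, and miR-1829b-3p, with which it shares reads, at 46.1 and 11.8 RPM against 5.15 and 6.29 RPM. Their log2 changes were 2.45 ± 0.62 and 2.48 ± 0.66 (SE; edgeR adjusted p = 0.0103 and 0.0131). The fourth, miR-4936, had no read in WT IP and 90 in null IP, at least 50.0-fold higher, with 8.59 RPM in library 1 and 1.07 RPM in library 2. Only 3 of its IP reads lay outside null, so it passed the filter on low counts through the group where it is high. Its call is therefore not independent of the filter.

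Of the 23 lower in null IP, 15 had no read in either null IP library: miR-8210-5p, miR-2217a-3p, miR-8208-5p, miR-8208-3p, miR-2221, miR-4929, miR-1822-5p, miR-2217b-3p, miR-8196b-3p, miR-2953-5p, miR-4806-5p, miR-8206-3p, miR-5553-3p, miR-5545-5p and miR-4805-3p. Their bounds ran from at least 2.40-fold to at least 17.0-fold lower, with a median of 6.40, and the highest was that of miR-8210-5p. With a replicate block miR-5553-3p, miR-5545-5p and miR-4805-3p lost the call, the first 2 also with DESeq2 and with no filter. Another 5, miR-8196a-3p, miR-4807, miR-8189-3p, miR-1832a-3p and miR-2220-3p, had 1 to 3 reads in null IP. Among them miR-8196a-3p had 3 reads against 326 in WT IP, 65.2-fold lower with a counting interval of 22.1 to 318. The last 3 were read more deeply. miR-1022-5p was at 113 and 126 RPM against 443 and 352 RPM, miR-1821-3p at 9.10 and 8.36 RPM against 37.5 and 54.3 RPM, and miR-5551-5p at 12.3 and 13.9 RPM against 41.3 and 45.9 RPM. Their log2 changes were -1.46 ± 0.37, -2.16 ± 0.50 and -1.47 ± 0.53 (SE; edgeR adjusted p = 0.0103, 0.00652 and 0.0450). miR-1820-5p differed from these: it was at 450 and 397 RPM in null IP, above both WT IP libraries at 280 and 344 RPM, and was not called.

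Library 1 of null IP, with 19 late-numbered miRNAs read, weighed on this comparison. Without it 17 were called, 10 higher and 7 lower, and without library 2 of null IP 41 were called, 5 higher and 36 lower. Without either WT IP library 12 were called, 1 higher and 11 lower, and with only the 2 groups in the fit 1 was called. The neuronal marker lsy-6-3p was at 0 and 8.14 RPM and miR-124-3p at 6.88 and 17.1 RPM in null IP, against 14.1 to 25.5 RPM and 40.4 to 54.8 RPM in WT IP, and let-7-5p at 48674 and 34652 RPM against 14701 and 12978 RPM. Their part in the calls was not tested.

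Reads of 13 late-numbered miRNAs were absent from all 4 null libraries among the 93 that had at least 10 reads over the 4 WT libraries. The number at 0 in all 4 libraries was 2 in F180del, 0 in G199S, 1 in V254I and 1 in H751L. Depth was nearest in F180del, with 29980216 reads over 4 libraries against 28468155 in null. The 13 were miR-8210-5p, miR-4929, miR-2217a-3p, miR-8208-5p, miR-2217b-3p, miR-4810a, miR-8208-3p, miR-5553-3p, miR-2218a-3p, miR-8203-3p, miR-2207-5p, miR-2209c-3p and miR-5545-3p, with 12 to 91 reads in WT. In total libraries alone 7 of 68 with at least 10 WT total reads were at 0 in null, against 1 to 4 in the alleles with an altered residue or deletion. In IP libraries alone 28 of 69 were at 0 in null, against 3 in H751L and 0 in F180del, G199S and V254I. The miRNAs counted were chosen by their WT reads, and library 1 of null IP had only 19 late-numbered miRNAs read. These counts were not made over all miRNAs, so whether absence in null is particular to late-numbered miRNAs was not tested.

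The fourth question was whether the IP to total ratio of a miRNA differed between an allele and WT, tested as an interaction over all 24 libraries with 99 late-numbered miRNAs. In F180del 1 was called, beside 2.22% of all miRNAs, 1.27% higher and 0.952% lower: miR-1820-5p. Its mean IP level was 23.99 times its mean total level in WT and 0.757 times in F180del, and the fitted log2 ratio was lower by 5.91 in F180del than in WT (change -5.91, edgeR adjusted p = 0.0269). In the remaining genotypes the ratio of means was 0.793 in G199S, 5.94 in V254I, 30.1 in H751L and 19.0 in null. The total libraries, not the IP libraries, carried the spread: over the 12 IP libraries miR-1820-5p ranged from 136 to 526 RPM and over the 12 total libraries from 9.33 to 654 RPM. The call in F180del was lost without any 1 of 7 of the 8 libraries, and over the 8 removals the change lay between -6.47 and -2.83. In G199S none was called by edgeR, beside 0.952% of all miRNAs, while 4 of 99 had an unadjusted p under 0.05 and DESeq2 called 1. None was called by edgeR in V254I, H751L and null, beside 0%, 0% and 1.27% of all miRNAs, the last being 0.317% higher and 0.952% lower. The numbers at an unadjusted p under 0.05 were 1, 8 and 15, and DESeq2 called 0, 0 and 1.

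The 2 arms of a hairpin could be set against each other for 81 hairpins, of which 22 reached the detection level with both arms summed. In 2 of the 22 the major arm of pooled total reads was not the major arm of pooled IP reads: mir-1829a, and mir-1832a, whose arms were equal in pooled IP. For mir-1829a the 5p arm held 20.8% of the reads in pooled total and 70.7% in pooled IP. Its share in single libraries was 2.06% and 15.6% in WT total, against 75.9% and 74.7% in WT IP. In IP the share was 60.4% and 63.1% in F180del, 51.4% and 49.8% in H751L and 86.7% and 78.6% in null, so H751L lay lowest and null highest, while total libraries ran from 0% to 50.6%. For mir-4813 the 5p arm held 45.8% and 59.8% of reads in G199S IP and 19.0% and 39.7% in F180del IP. It held at most 6.12% in the other IP libraries, of which library 1 of null had no read of either arm. In total RNA the share was 13.4% and 32.1% in G199S, 0% and 18.3% in F180del, and at most 5.07% elsewhere. These shares are descriptions and were not tested.

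**Figure D5:**
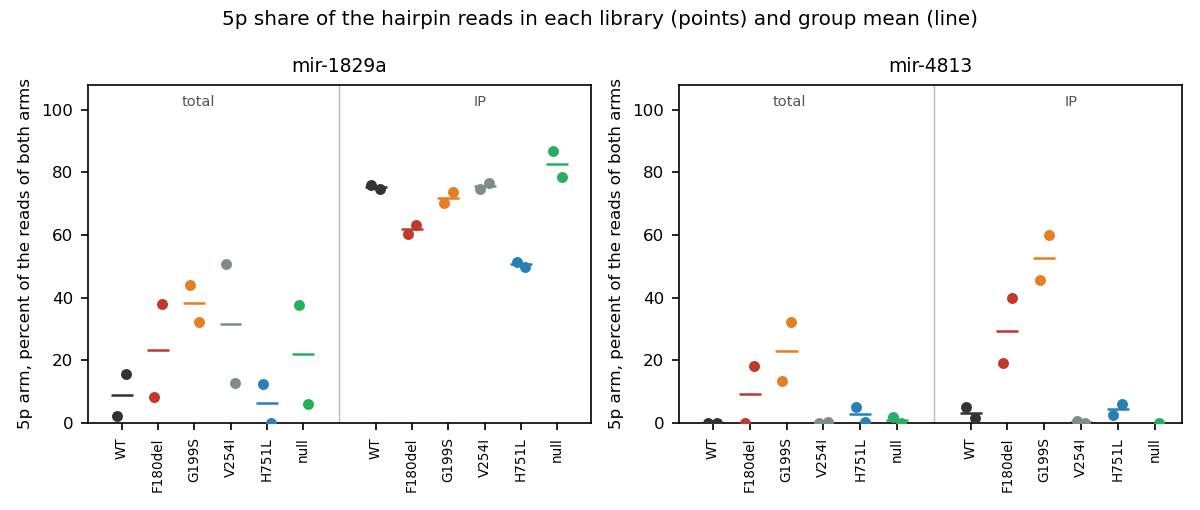
Reads of the 5p arm as a percent of the reads of both arms for mir-1829a (left) and mir-4813 (right) by genotype, total RNA left and ALG-1 IP right of the grey line; points are libraries and lines group means (n = 2, except mir-4813 in null IP, where library 1 had no read). For mir-1829a the IP libraries lie between 49.8% and 86.7%, and for mir-4813 the G199S IP libraries, at 45.8% and 59.8%, lie highest.

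Over the 10 comparisons with WT, 43 late-numbered miRNAs were called at least once, in 54 called changes, 27 of them in null IP. In none of the 10 was the share of late-numbered miRNAs called above the share over all miRNAs tested, as given above. miR-8198-3p was called higher in total RNA of F180del, G199S and null, at 29.5 and 28.5, 21.0 and 25.7, and 14.0 and 30.7 RPM, all set against the same WT libraries at 3.04 and 3.19 RPM. Of the 28 detected miRNAs 4 were called in no comparison: miR-4813-3p, miR-1829a-3p, miR-1830-3p and miR-8199-5p. miR-1829a-3p was at 106 and 50.5 RPM in WT total and between 11.9 and 50.6 RPM in the mutant total libraries, and at 21.3 and 30.2 RPM in WT IP and between 12.4 and 36.5 RPM in the mutant IP libraries. miR-1830-3p ranged from 5.21 to 29.2 RPM over the total libraries and from 0.643 to 2.98 RPM over the IP libraries.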

How the data were processed

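Counts of whole reads per mature miRNA and hairpin in 24 libraries were used as deposited by the authors. The authors' deposited RPM sheet equalled these counts per 1000000 library reads within 1 RPM in all cells. The tools listed, per the submitters' processing notes and with no role, are Bowtie 1.2.2, cutadapt, DESeq2 and FastQC 0.11.8. No source used here gives the genome build or the handling of reads with several matches. A sheet with 48 per-sample columns that match no label was not used. Where a mature name was listed for several hairpins, the row with most reads was kept (12 late-numbered rows left out).

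Counts were filtered with filterByExpr on group and tested with edgeR 4.0.16 (R 4.3.3; TMM, glmQLFit, glmQLFTest) in 3 fits: the 12 total libraries, the 12 IP libraries and all 24, giving 303, 269 and 315 miRNAs tested. The SE is the log2 change divided by the square root of F. DESeq2 1.42.0 was an alternative, beside RLE size factors, library totals, no filter, only the groups compared, all hairpin rows, a replicate block and each library left out. The fitting was tested on simulated IP counts, with changes put only into miRNAs above a set mean level and a fixed spread for all. Most late-numbered miRNAs lie below that level, so the simulation does not cover them. Positions were read from Ensembl release 115 of WBcel235.

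Named were late-numbered miRNAs among the 30 with the highest mean RPM, those called in any comparison, and those nearest the detection level; others are named only as a count's members. The miRNAs and lists were chosen with earlier results of these data known. The tables hold no value for alg-1 itself, so genotypes were not checked on the targeted gene.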

Additional observations from a re-analysis of the deposited data

Results flagged for a closer look

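The IP to total ratio of miR-1820-5p differed between F180del and WT in the test of the difference itself (edgeR interaction, log2 change -5.91, adjusted p = 0.0269). Both WT IP libraries exceeded both WT total libraries, at 280 and 344 RPM against 9.33 and 16.7 RPM. The F180del IP libraries, at 136 and 393 RPM, lay between the F180del total libraries, at 44.4 and 654 RPM. The call was lost without any 1 of 7 of the 8 libraries. No group had enough libraries to look for a single library far from the others.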

How the results depend on the processing

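Over 70 called changes of late-numbered miRNAs and 765 alternatives of them, 545 kept the call, 220 lost it and 0 reversed, and 6 changes were called under every alternative: miR-1817 in F180del IP, miR-4813-5p in G199S IP, miR-1829c-5p in null IP, and miR-1820-5p, miR-4926 and miR-8198-3p between WT IP and total. The cause of the losses was not tested. Counts of called late-numbered miRNAs follow, as reported and then where an alternative moved them over 1.5 times. For F180del total, 7 as reported, DESeq2 called 12 and the 2 groups alone 2, and leaving out 1 library 0 to 5. For G199S total, 3 as reported, 7 were called with no filter, 7 by DESeq2, 9 with the 2 groups alone and 0 to 2 with 1 library left out. For H751L total, 0 as reported, 1 was called with no filter and 1 by DESeq2. For null total, 6 as reported, DESeq2 called 12, the 2 groups alone 0 and leaving out 1 library 0 to 4. For F180del IP, 8 as reported, library totals gave 5, DESeq2 14, the 2 groups alone 20 and leaving out 1 library 2 to 3. For G199S IP, 2 as reported, DESeq2 called 9, the 2 groups alone 11 and leaving out 1 library 1 in each case. For H751L IP, 1 as reported, no filter gave 2, DESeq2 5, the 2 groups alone 7 and leaving out 1 library 0 in each case. For null IP, 27 as reported, the 2 groups alone gave 1 and leaving out 1 library 12 to 41. For WT IP against total, 15 as reported, the 2 groups alone gave 26 and leaving out 1 library 4 to 13. For the IP to total ratio in F180del, 1 as reported, DESeq2 gave 2 and leaving out 1 library 0 to 1. For the ratio in G199S, 0 as reported, RLE size factors gave 1, no filter 1, DESeq2 1 and the groups compared alone 2. For the ratio in null, 0 as reported, DESeq2 gave 1 and leaving out 1 library 0 to 13. Where a group was left with 1 library, that library was assumed to vary like the other groups. Detection in WT total was 48 at 1 RPM and 0 at 100 RPM, against 15, and in WT IP 37 and 2, against 10. Library totals in place of TMM factors shifted the median of all miRNAs by 0.20 in G199S total, 0.17 in null total, -0.16 in H751L total, 0.29 in G199S IP, 0.19 in V254I IP, -0.20 in H751L IP and -0.28 in null IP. With RLE size factors the G199S total calls were 2 higher and 1 lower and the null total calls 0 and 5.

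The replicate numbers were not taken as pairs: same-numbered libraries of different genotypes deviated together with correlations from -0.32 to 0.61 in total and -0.10 to 0.50 in IP, and total and IP of one genotype with -0.10 to 0.30. With the replicate number as a block, 7 were called in F180del total, 4 in G199S total, 6 in null total, 8 in F180del IP, 2 in G199S IP, 1 in H751L IP, 25 in null IP, 18 between WT IP and total, and 1 each for the ratio in F180del and in G199S; no block call was made in the remaining comparisons. Depth limits what could be tested: 88 of the 195 late-numbered miRNAs passed the filter in total RNA and 68 in IP, and each group has 2 libraries.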
